A study of Homo sapiens with 10 samples.

Results

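The transcription factor genes HIF1A and EPAS1 and 8 genes induced by hypoxia were followed through a time course of dibutyryl cAMP, which enters cells and switches on protein kinase A as cyclic AMP does. The 10 genes were taken by symbol from a list (HIF1A, EPAS1, EGLN3, CA9, CA12, VEGFA, ADM, NDRG1, BNIP3 and ANKRD37), and all 10 were among the 20379 genes of the table. The human glioblastoma cell lines DBTRG-05MG and U87 were each sampled after 0, 6, 12, 24 and 48 h in 1 mM dibutyryl cAMP. Poly(A) RNA was sequenced in 10 libraries, 1 for each line and time, so there were no replicate cultures. Levels are FPKM (fragments per transcript length and library size), and changes are differences of log2(FPKM + 1) from the 0 h library of the same line. No untreated libraries of the later times were analysed here, so dibutyryl cAMP and time in culture, with whatever cell density and medium changed meanwhile, cannot be told apart.

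Hypoxia-inducible factors are pairs of an oxygen-regulated subunit, encoded by HIF1A or EPAS1 (HIF-2alpha), and a stable partner, ARNT. In oxygenated cells, prolyl hydroxylases of the EGLN family mark the oxygen-regulated subunit for destruction through VHL, so its protein is set mainly by stability and not by the level of its mRNA. When oxygen is low the pair binds the core of hypoxia response elements near genes for angiogenesis, pH control, mitophagy and glycolysis, and glioblastomas are known for a strong programme of this kind around necrosis. HIF protein and oxygen were not measured here.

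Most of the hypoxia-induced genes stood below their starting level in DBTRG-05MG and above it in U87 at 12 h. The 12 h time was singled out after the values were seen. At that time, 7 of the 9 genes that passed the filter on low values were lower than at 0 h in DBTRG-05MG and higher in U87, a combination found in 21.0% of the 12352 genes tested. Among the 7 was the factor gene HIF1A, whose change in U87 was only 0.04 log2 units. BNIP3, ADM, CA9 and NDRG1 were at least 2-fold lower in DBTRG-05MG at 12 h, and CA9, VEGFA, ADM, NDRG1, BNIP3 and ANKRD37 at least 2-fold higher in U87. At 6 h the pattern was less general: CA9 and CA12 were lower than at 0 h in U87 too (-0.57 and -0.14), and ANKRD37 was higher in both lines. By 48 h the U87 levels of BNIP3, CA9, VEGFA and NDRG1 were back near or below their start, while ADM was still 2.8-fold above it. In DBTRG-05MG at 48 h, 5 of the 9 genes were above their start and 4 below. Among those above were CA12 (1.37 log2 units), VEGFA (0.93) and NDRG1 (0.81). None of the 9 genes was called in the main fits, but these did not test the differences listed here. The fit at single times asked for changes shared by both lines, in which opposed changes cancel, and the trend fits took the whole course. With 1 library per line and time the differences listed are sizes without a replicate check.

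The promoters of CA9, BNIP3, ANKRD37 and ADM are shown because these genes were at least 2-fold from their start in 1 or both lines at 12 h and because the windows differ in their hypoxia response cores. Each window is RefSeq sequence of GRCh38.p14, 250 bases before to 50 bases after the start site, read on the strand of the gene. Capitals mark matches to the hypoxia response core, ACGTG or GCGTG, on either strand. CA9 lies at chr9:35673678-35673977 on the plus strand, BNIP3 at chr10:131981874-131982173 on the minus strand, ANKRD37 at chr4:185396591-185396890 on the plus strand and ADM at chr11:10304823-10305122 on the plus strand.
CA9: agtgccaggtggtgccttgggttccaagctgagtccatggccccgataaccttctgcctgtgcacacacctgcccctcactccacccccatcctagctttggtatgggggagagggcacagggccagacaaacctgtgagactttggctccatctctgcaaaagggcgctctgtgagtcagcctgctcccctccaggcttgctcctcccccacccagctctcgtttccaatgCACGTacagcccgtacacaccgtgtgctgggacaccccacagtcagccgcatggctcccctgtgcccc
BNIP3: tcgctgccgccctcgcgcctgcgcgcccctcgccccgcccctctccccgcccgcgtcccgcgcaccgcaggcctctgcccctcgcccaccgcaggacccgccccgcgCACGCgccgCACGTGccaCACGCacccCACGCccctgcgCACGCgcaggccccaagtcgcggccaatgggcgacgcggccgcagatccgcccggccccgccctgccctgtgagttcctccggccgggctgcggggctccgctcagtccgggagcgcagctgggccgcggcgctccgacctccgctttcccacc
ANKRD37: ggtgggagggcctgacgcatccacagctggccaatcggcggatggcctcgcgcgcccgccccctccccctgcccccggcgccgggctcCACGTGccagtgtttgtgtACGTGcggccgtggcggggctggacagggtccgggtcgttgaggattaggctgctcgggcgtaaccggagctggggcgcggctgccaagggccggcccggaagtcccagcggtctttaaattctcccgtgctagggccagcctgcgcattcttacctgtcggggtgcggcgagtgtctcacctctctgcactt
ADM: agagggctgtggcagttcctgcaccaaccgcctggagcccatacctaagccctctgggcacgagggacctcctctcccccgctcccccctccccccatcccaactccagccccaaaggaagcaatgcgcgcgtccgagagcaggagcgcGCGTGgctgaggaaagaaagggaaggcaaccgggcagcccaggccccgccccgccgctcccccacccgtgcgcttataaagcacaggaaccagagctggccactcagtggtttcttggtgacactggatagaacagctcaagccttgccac

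The BNIP3 window held 2 matches to ACGTG and 4 to GCGTG, all at positions between -143 and -104, counted from the start site to the first base of each match. Where ACGTG lies in CACGTG it reads on both strands and was counted on each, which gave both ACGTG matches of BNIP3 and 2 of the 3 of ANKRD37. The CA9 window held 1 ACGTG, on the opposite strand at position -18, and the ADM window 1 GCGTG at position -101. Of the 10 genes, 8 had an entry in the RefSeq promoter table, with 9 windows because HIF1A has 2 start sites, and 7 of the 9 windows held ACGTG or GCGTG. Among all 35116 promoter windows of the same length, 48.4% held 1 or the other (ACGTG 21.4%, GCGTG 36.5%). The cAMP response element TGACGTCA, found in 1.85% of all windows, was in none of the 9. Its shorter core TGACG, found in 24.6%, was in 3 windows (HIF1A, EGLN3 and ANKRD37), in none of them overlapping a hypoxia core. These matches describe letters in a short window and show no binding.

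**Figure D1:**
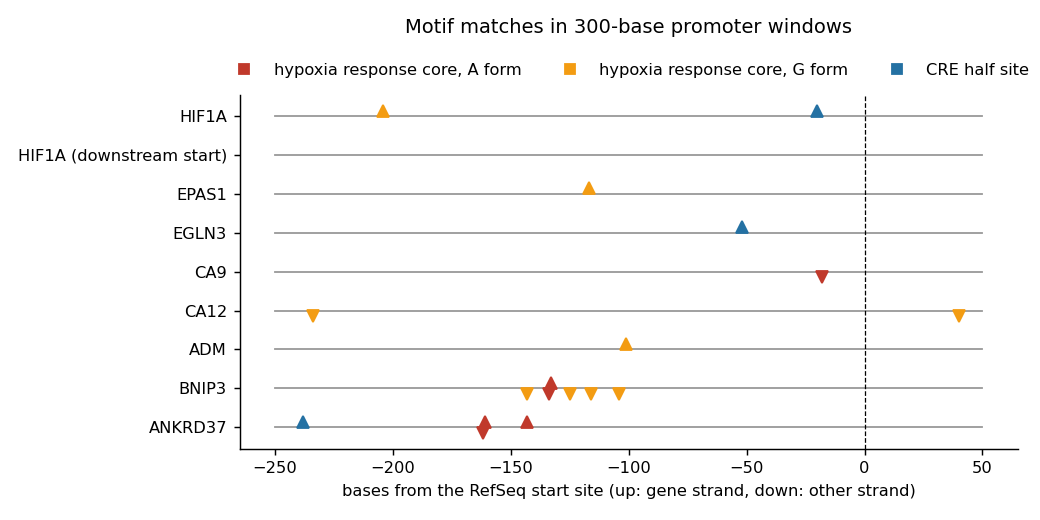
Matches to the hypoxia response core (ACGTG, A form; GCGTG, G form) and to the shorter core of the cAMP response element (CRE, TGACG) in 9 promoter windows of 8 genes; the x axis is bases from the RefSeq start site, upward triangles are matches on the strand of the gene and downward triangles on the other strand. BNIP3 has a group of 6 hypoxia core matches between -143 and -104, while the window of EGLN3 and that of the downstream HIF1A start have none.

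Both factor genes were within 1 log2 unit of their 0 h level in each line at all times, except that median centring put HIF1A in U87 at 48 h at 1.17 (0.92 without). HIF1A (chromosome 14, 61695513 to 61748259 on GRCh38) stood at 73.8, 56.9, 54.5, 87.6 and 58.1 FPKM in DBTRG-05MG and at 141, 166, 144, 212 and 267 FPKM in U87 at 0, 6, 12, 24 and 48 h. It was lower in DBTRG-05MG than in U87 at every time, by 1.90-fold at 0 h and 4.6-fold at 48 h. In U87 the 24 and 48 h libraries stood highest, at 1.9-fold the 0 h level by 48 h, whereas the DBTRG-05MG libraries had no steady direction.

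EPAS1 (chromosome 2, 46293667 to 46386703) encodes HIF-2alpha, which in glioma has been studied in stem-like cells. It stood at 15.7, 19.6, 17.5, 16.6 and 21.8 FPKM in DBTRG-05MG and at 82.9, 81.6, 112, 131 and 99.1 FPKM in U87. The lines were 4.17 to 7.88-fold apart, U87 being higher, and within DBTRG-05MG the highest library was 1.39-fold the lowest. EPAS1 and CA9 were the 2 of 9 genes at least 2-fold lower in DBTRG-05MG than in U87 at all 5 times on the log2(FPKM + 1) scale, a size reached by 4.16% of genes.

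EGLN3 (chromosome 14, 33924231 to 34462774), a prolyl hydroxylase that HIF induces and that acts back on it, was scarce. Its level was 1.82, 0.726, 1.04, 0.713 and 1.67 FPKM in DBTRG-05MG, lowest at 6 and 24 h, and it was listed at 0 in all 5 U87 libraries. With a mean below 1 FPKM over the 10 libraries it was the 1 of the 10 genes that was not tested.

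**Figure D2:**
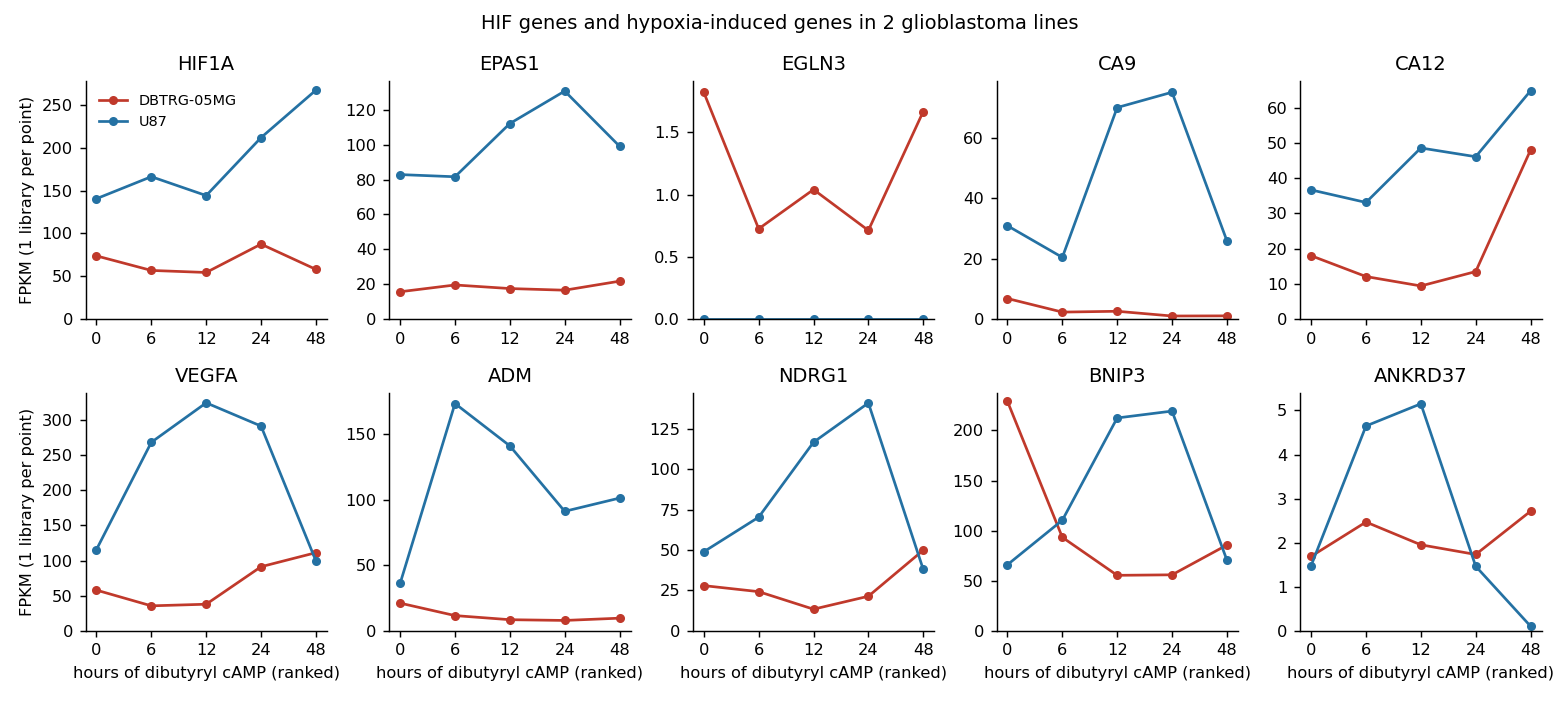
Levels in FPKM (y axis, from 0, a separate scale for each gene) of the 10 genes at 0, 6, 12, 24 and 48 h of dibutyryl cAMP (x axis, times spaced evenly); each point is 1 library, red for DBTRG-05MG and blue for U87, with no error bars because each line and time has 1 library. BNIP3 starts at 229 FPKM in DBTRG-05MG, against 66.0 FPKM in U87, and the curves cross before 6 h.

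BNIP3 (chromosome 10, 131966455 to 131982013), which encodes a mitochondrial protein that promotes mitophagy, had the widest spread of changes between the lines at 12 h among the 9 genes. In DBTRG-05MG it stood at 229, 93.3, 55.4, 55.9 and 85.6 FPKM at 0, 6, 12, 24 and 48 h, so every later library was below the first. In U87 it stood at 66.0, 110.4, 212, 219 and 70.6 FPKM, with the 12 and 24 h libraries more than 3-fold above the first and the 48 h library close to it. The log2 change of BNIP3 at 6, 12, 24 and 48 h was -1.29, -2.03, -2.02 and -1.41 in DBTRG-05MG, against 0.73, 1.67, 1.72 and 0.10 in U87. At 0 h BNIP3 was 1.78 log2 units higher in DBTRG-05MG than in U87, and at 12 h 1.92 log2 units lower. GENCODE names 39 pseudogenes of BNIP3, none with a row in the table; whether reads from such copies enter its level was not tested.

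ADM (chromosome 11, 10304680 to 10307397) encodes adrenomedullin, a vasodilator peptide. It stood at 21.1, 11.6, 8.45, 7.89 and 9.62 FPKM in DBTRG-05MG and at 36.2, 173, 141, 91.1 and 101.2 FPKM in U87. All 4 later libraries were below the first in DBTRG-05MG and all 4 above it in U87, where the level was highest at 6 h. ADM was lower in DBTRG-05MG than in U87 by 1.72-fold at 0 h and by 10.5 to 16.7-fold from 6 h on. ADM and BNIP3 were the 2 of 9 genes lower than at 0 h at all 4 later times in DBTRG-05MG and higher at all 4 in U87, and 1.73% of all tested genes did the same.

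VEGFA (chromosome 6, 43770184 to 43786487), the main angiogenic growth factor gene, stood at 57.9, 35.5, 37.8, 91.2 and 111 FPKM in DBTRG-05MG and at 116, 268, 324, 291 and 99.6 FPKM in U87. In DBTRG-05MG it was lower at 6 and 12 h and higher at 24 and 48 h than at the start, whereas in U87 it was higher at 6, 12 and 24 h and lower at 48 h. The lines were 8.58-fold apart at 12 h, U87 being higher, and at 48 h the DBTRG-05MG level exceeded that of U87. The U87 change at 48 h, -0.21, became 0.03 after median centring and so has no direction that holds under both scalings.

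NDRG1 (chromosome 8, 133237171 to 133302022), a stress-responsive gene long used as a hypoxia marker, stood at 27.9, 24.2, 13.4, 21.4 and 49.8 FPKM in DBTRG-05MG and at 48.9, 70.3, 117, 141 and 38.0 FPKM in U87. It was lowest at 12 h and highest at 48 h in DBTRG-05MG, and highest at 24 h and lowest at 48 h in U87. NDRG1 was the 1 of 9 genes at least 2-fold lower at 12 h than at both 0 and 48 h in DBTRG-05MG, as were 0.429% of all genes. ANKRD37 (chromosome 4, 185396021 to 185400628), an ankyrin-repeat gene known as a HIF target, stood at 1.69, 2.47, 1.95, 1.73 and 2.71 FPKM in DBTRG-05MG and at 1.48, 4.65, 5.15, 1.46 and 0.104 FPKM in U87. Its U87 libraries at 6 and 12 h were about 3-fold above the first, and the 48 h library was the lowest of all 10.

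CA9 (chromosome 9, 35673856 to 35681159) and CA12 (chromosome 15, 63321378 to 63382161) encode membrane carbonic anhydrases that regulate extracellular pH, and their courses were unlike. CA9 stood at 6.82, 2.33, 2.61, 1.04 and 1.09 FPKM in DBTRG-05MG and at 30.9, 20.4, 70.0, 75.0 and 25.9 FPKM in U87. It was lower at every later time than at 0 h in DBTRG-05MG, and in U87 higher only at 12 and 24 h. CA12 stood at 18.0, 12.1, 9.42, 13.5 and 48.0 FPKM in DBTRG-05MG and at 36.7, 33.1, 48.6, 46.1 and 64.8 FPKM in U87. The 48 h library had the highest CA12 level in both lines, by 1.37 and 0.80 log2 units above 0 h in DBTRG-05MG and U87.

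The library protocol describes no step that keeps the strand, and parts of CA9 and ANKRD37 lie opposite other genes. Of the annotated exon bases of CA9, 38.5% are shared with ARHGEF39 on the other strand, which ranged over 0.673 to 3.09 FPKM in the DBTRG-05MG libraries and over 0.700 to 3.28 FPKM in the U87 libraries. The DBTRG-05MG levels of CA9 from 6 h on were thus of the size of those of its neighbour, whereas the U87 levels were far above it. Of the exon bases of ANKRD37, 35.2% are shared with UFSP2. That gene ranged over 4.20 to 5.62 FPKM in the DBTRG-05MG libraries and over 5.59 to 7.34 FPKM in the U87 libraries. UFSP2 stood above ANKRD37 in every library. In U87 at 0, 6 and 12 h UFSP2 stood at 7.22, 6.49 and 5.59 FPKM, and ANKRD37 at 1.48, 4.65 and 5.15 FPKM. The part of shared reads in either gene's level was not tested.

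**Figure D3:**
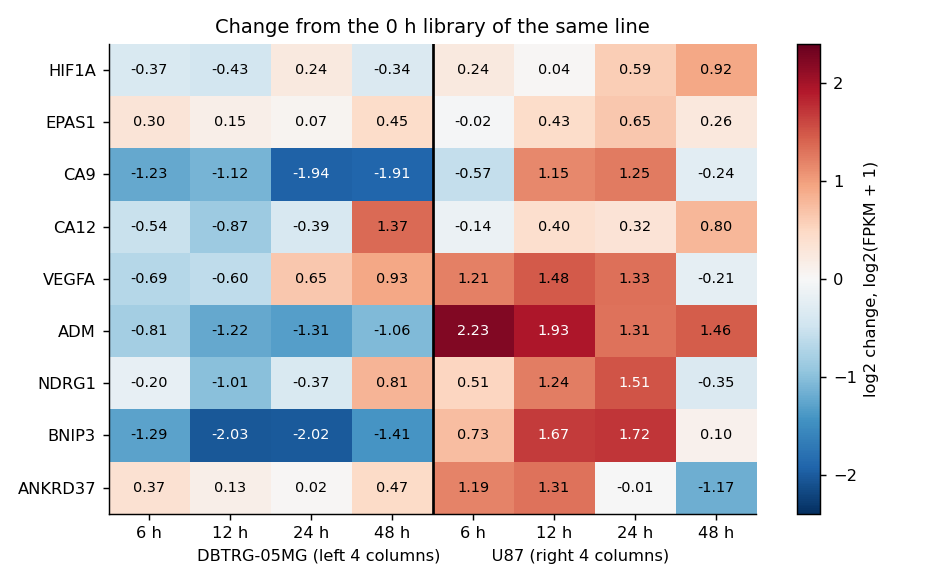
Log2 change from the 0 h library of the same line, on the log2(FPKM + 1) scale, for the 9 tested genes (rows) at 6, 12, 24 and 48 h in DBTRG-05MG (left) and U87 (right); blue is lower and red higher than 0 h, and each cell is 1 library against 1 library. In DBTRG-05MG BNIP3 is at -2.03 and ADM at -1.22 at 12 h, and in U87 these genes are at 1.67 and 1.93.

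Set beside all genes, the sizes were as follows. In DBTRG-05MG, 2 of 9 genes were at least 2-fold lower at 6 h (CA9 and BNIP3), beside 0.81% of all tested genes. At 12 h there were 4 (CA9, ADM, NDRG1 and BNIP3), beside 1.61%. At 24 and 48 h there were 3 each (CA9, ADM and BNIP3), beside 1.6 and 5.16%. The low levels of these 3 therefore lasted to 48 h, by when CA12 was the 1 gene of the 9 at least 2-fold higher, beside 4.57% of all genes.

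In U87, 3 of 9 genes were at least 2-fold higher at 6 h (VEGFA, ADM and ANKRD37), beside 2.73% of all tested genes. At 12 h 6 genes had reached that size, beside 2.61%, and at 24 h 5 (CA9, VEGFA, ADM, NDRG1 and BNIP3), beside 2.15%. At 48 h ADM was the 1 gene at least 2-fold higher, beside 2.14%, and ANKRD37 the 1 at least 2-fold lower, beside 4.32%; after median centring these counts were 3 (HIF1A, CA12 and ADM) and 0. The 12 h level was at least 2-fold above both the 0 and the 48 h level for CA9, VEGFA, NDRG1, BNIP3 and ANKRD37, 5 of 9, and for 1.41% of all genes. VEGFA and ANKRD37 were highest at 12 h, and CA9, NDRG1 and BNIP3 at 24 h. The median change of the 9 genes at 12 h was -0.87 in DBTRG-05MG and 1.24 in U87, and that of all genes was 0.00 and -0.04.

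**Figure D4:**
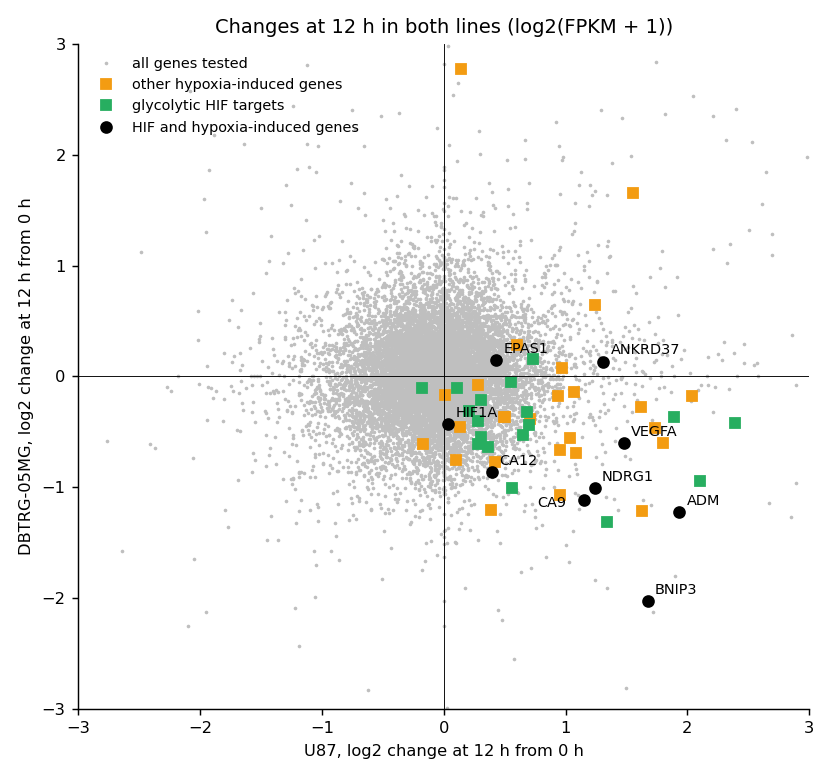
Log2 change at 12 h from 0 h in U87 (x axis) and DBTRG-05MG (y axis), on the log2(FPKM + 1) scale; each point is 1 gene, grey for the 12352 tested genes, black for the 9 tested HIF and hypoxia-induced genes, orange for 26 other hypoxia-induced genes and green for 18 glycolytic HIF targets, with 16 genes outside the axes. The lower right field, lower in DBTRG-05MG and higher in U87, holds 7 of the 9 black points, and BNIP3 lies at its far corner.

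The tests asked which changes were shared by both lines, and which straight trends differed between them beyond the scatter of the libraries around those trends. For changes shared by both lines, limma with line as a block called 0 of the 9 genes at 6, 12, 24 or 48 h (Benjamini-Hochberg adjusted p at or above 0.297). Over all genes it called 0.0081% at each of 6, 12 and 24 h and 0% at 48 h. At an unadjusted p under 0.05 there were 0, 0, 0 and 1 of the 9 genes, beside 656, 552, 433 and 1512 of all genes. The 1 gene was CA12 at 48 h, with a mean log2 change of 1.08 ± 0.38 (SE of the fit, n = 2 lines, limma adjusted p = 0.297) and a higher level in both lines. For BNIP3 the mean change at 12 h was -0.18 ± 0.77 (SE, limma adjusted p = 0.999), a wide error that reflects lines moving in opposite directions.

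Straight trends over the rank of time gave 0 of 9 called genes as well. The difference between the trends of DBTRG-05MG and U87 was called for 0.0162% of all genes and for none of the 9, of which 1 had an unadjusted p under 0.05 (1661 of all genes). That gene was CA9, whose slope per step of time was -0.45 in DBTRG-05MG and 0.13 in U87, a difference of -0.59 ± 0.25 (SE, limma adjusted p = 0.354). The trend within DBTRG-05MG was called for 1.12% of all genes and 0 of 9, with 1 gene at an unadjusted p under 0.05 (2210 of all genes). The trend within U87 was called for 0% of all genes and 0 of 9, with HIF1A the 1 gene at an unadjusted p under 0.05 (1545 of all genes), at 0.22 ± 0.08 per step (SE, limma adjusted p = 0.362).

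Because levels that go up and come back have no straight trend, a curved time course was fitted after the values were seen, with the rank of time and its square in each line. Its joint test of the difference between the lines called 0.0567% of all genes and 0 of the 9. BNIP3 came nearest (limma adjusted p = 0.0602), followed by VEGFA (limma adjusted p = 0.0865), ANKRD37 (limma adjusted p = 0.107) and NDRG1 (limma adjusted p = 0.138). At an unadjusted p under 0.05 there were 7 of 9 genes, all but HIF1A and EPAS1, beside 2102 of all genes. The test was chosen with the curves in view and is no independent evidence for them.

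Other genes of the pathway, from lists drawn up with earlier results of these data known, were read in the same fits. Of 15 regulators of HIF, 13 were tested, and 0 passed in any of the 4 times or 3 trend tests. Their median change lay between -0.01 and 0.18 log2 units in DBTRG-05MG and between -0.01 and 0.15 in U87, close to that of all genes. EGLN1, the main oxygen-sensing prolyl hydroxylase and itself induced by HIF, stood at 10.8, 8.71, 8.16, 7.49 and 10.6 FPKM in DBTRG-05MG and at 4.35, 8.92, 11.5, 4.33 and 2.54 FPKM in U87, where it was highest at 12 h. EGLN1 was singled out after its values were seen, as the 1 of the 13 at least 2-fold higher at 12 h than at both 0 and 48 h in U87. Of all tested genes, 1.41% had this course. CITED2 was also picked after its values were seen, as the 1 of the 13 at least 2-fold higher in U87 at 24 h, beside 2.15% of all tested genes. Its change at 24 h was 1.89 log2 units in U87 and -0.97 in DBTRG-05MG. At 12 h 5 of the 13 regulators (38.5%) were lower than at 0 h in DBTRG-05MG and higher in U87, beside 21.0% of all tested genes.

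The regulators with the largest common change at 48 h were the coactivators CREBBP and EP300, which serve both HIF and CREB. The change of CREBBP was -0.66 in DBTRG-05MG and -0.93 in U87, and that of EP300 -0.40 and -0.90. At 6, 12 and 24 h both stood above 0 h in U87 (CREBBP 0.54, 0.43 and 0.49, EP300 0.47, 0.52 and 0.65). In DBTRG-05MG both were below 0 h at these times. At 48 h ARNT, the stable partner, was 0.24 and 0.23 log2 units above 0 h in DBTRG-05MG and U87. The elongin gene TCEB2, part of the VHL complex, was 0.38 and 0.23 above it. HIF3A was at or below 0.124 FPKM and EGLN2 at or below 0.238 FPKM in all 10 libraries.

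Of 26 other hypoxia-induced genes, all tested, 1 passed: DDIT4, an inhibitor of mTORC1, rose in DBTRG-05MG by 0.78 ± 0.12 log2 units per step (SE, limma adjusted p = 0.0236). The call held in 9 of the alternatives run and was lost in 8, all with a positive slope, with limma adjusted p up to 0.145, the highest without the DBTRG-05MG 48 h library. The 9 include leaving out each U87 library, which cannot change this slope. The call was lost without the DBTRG-05MG library of 0, 6, 24 or 48 h. DDIT4 stood at 17.3, 20.2, 56.6, 105 and 122 FPKM in DBTRG-05MG and at 47.6, 83.5, 142, 107 and 81.5 FPKM in U87, and so was higher than at 0 h at every later time in both lines. At 12 h the list stood on different sides of 0 h in the lines, with 21 of 26 genes lower in DBTRG-05MG and 25 of 26 higher in U87, beside 49.6 and 43.8% of all tested genes. The median change was -0.38 and 0.95, beside 0.00 and -0.04 over all genes, and 20 of 26 genes (76.9%) combined the 2 directions, beside 21.0%. At 48 h the medians were -0.26 and 0.08. PPP1R3C, a glycogen-targeting phosphatase subunit, was 0.95 and 0.69 log2 units higher at 48 h in DBTRG-05MG and U87, the collagen prolyl hydroxylase gene P4HA2 0.68 and 0.96 higher. The change of the adenylate kinase gene AK4 was -0.79 and -0.61.

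Of 18 glycolytic HIF targets, all tested, 0 passed. In DBTRG-05MG, 18 of 18 were lower than at 0 h at 6 h and 17 of 18 at 12 h, with medians of -0.43 and -0.41, beside 60.8 and 49.6% of all tested genes. In U87, 10 of 18 were higher at 6 h and 17 of 18 at 12 and at 24 h, with medians of 0.06, 0.55 and 0.39, beside 47.1, 43.8 and 35.1% of all tested genes. At 12 h 16 of 18 (88.9%) combined lower in DBTRG-05MG with higher in U87, beside 21.0%. The U87 level at 12 h was at least 2-fold above both the 0 and the 48 h level for 4 of the 18 (SLC2A1, PFKFB3, PFKFB4 and PDK1). The same held for 6 of the 26 other hypoxia-induced genes (PLOD2, ANGPTL4, IGFBP3, TMEM45A, FAM162A and AK4), and for 1.41% of all tested genes. The glucose transporter gene SLC2A1 stood at 133, 129, 99.3, 88.3 and 56.7 FPKM in DBTRG-05MG and at 12.4, 53.5, 69.2, 31.6 and 8.16 FPKM in U87. The neuronal-type transporter gene SLC2A3 was higher at 48 h in both lines, by 1.14 and 1.16 log2 units (mean 1.15 ± 0.26, SE, limma adjusted p = 0.152). The glycolytic regulators PFKFB4 and PFKFB3 differed from 0 h by -0.57 and -0.72 in DBTRG-05MG at 48 h, and in U87 by -0.84 and -0.42.

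**Figure D5:**
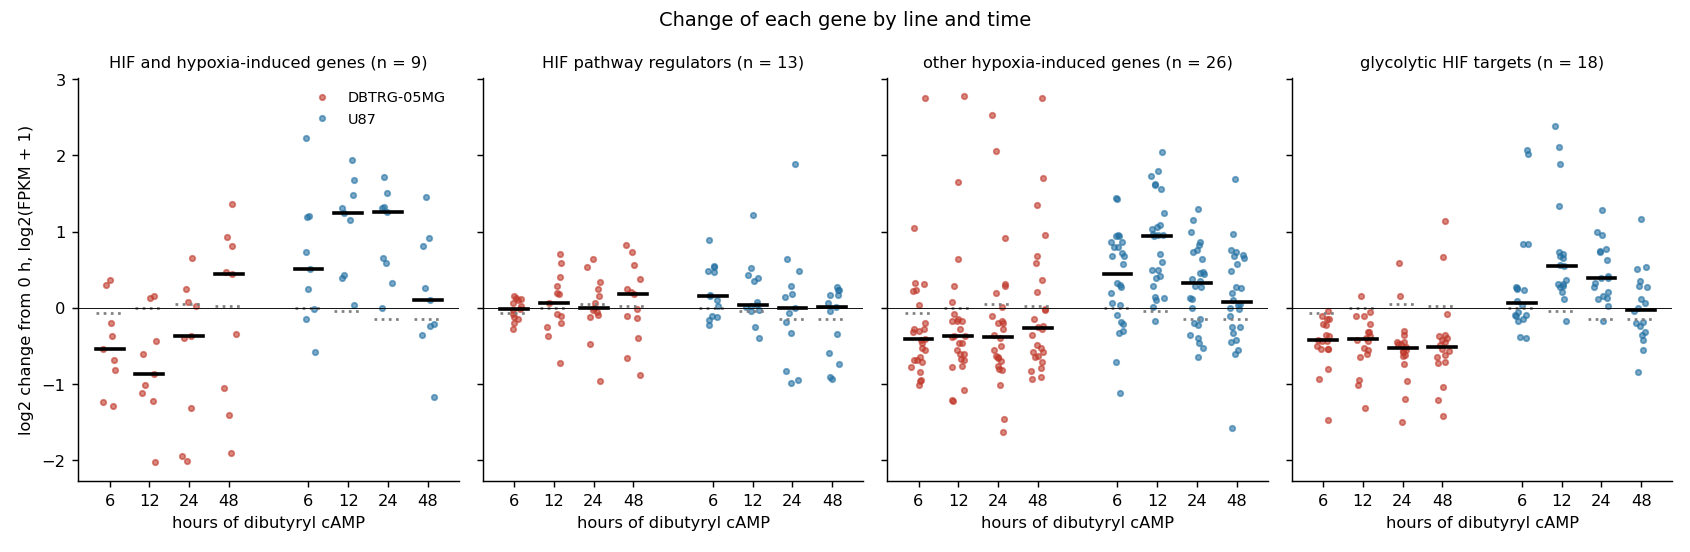
Log2 change from 0 h, on the log2(FPKM + 1) scale, of each tested gene (points, spread sideways for clarity) at 6, 12, 24 and 48 h in DBTRG-05MG (red, left) and U87 (blue, right) for the 9 HIF and hypoxia-induced genes, 13 regulators, 26 other hypoxia-induced genes and 18 glycolytic targets; black bars are list medians and grey dotted bars the median of all 12352 tested genes. At 12 h the black bars of the induced lists lie below 0 in DBTRG-05MG and above 0 in U87, while those of the regulators stay near 0.

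The genes whose courses were most like those of the hypoxia genes were looked up over the 8406 genes averaging 5 FPKM or more, by Pearson's r over the 10 libraries after centring each line. For BNIP3 these were the glycolytic enzyme gene GPI (r = 0.959) and SPAG4 (r = 0.952). For VEGFA they were MRPL40 and KCTD18 (r = 0.953 each), and for ANKRD37 B3GALT6 (0.973) and DDX31 (0.970). CA9 was most like SAMD10 (0.940) and PHPT1 (0.923), and CA12 most like DGAT1 (0.955) and REEP6 (0.950). ADM was most like the chemokine gene CXCL1 (0.913) and COL8A1 (0.908), HIF1A like ZNF581 (0.939) and APOBEC3D (0.899), and EPAS1 like TLN2 (0.911) and SHISA5 (0.893). The libraries of a line share their cells and scaling, and among 8406 genes high values of r are common, so this is a description only.

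Sequencing depth, read from the spacing of low values, was within 100 to 116.8% of the DBTRG-05MG 0 h library, and total FPKM lay between 405316 and 487281. The library median over tested genes moved by up to 0.10 log2 units from 0 h in DBTRG-05MG and was 0.22 and 0.24 lower at 24 and 48 h in U87. Relative to that shift the U87 levels at 24 and 48 h were higher than stated by as much, and besides VEGFA at 48 h only ANKRD37 at 24 h changed direction, in both lines, from changes of 0.02 and -0.01. The non-coding RNA BCYRN1 took 0.578 to 3.37% of total FPKM in DBTRG-05MG and 7.38 to 13.3% in U87. Of the glioma line markers, CD44 stood at 545, 422, 363, 321 and 373 FPKM in DBTRG-05MG and at 258, 552, 683, 691 and 487 FPKM in U87. Like ADM and BNIP3, CD44 was thus lower than at 0 h at all 4 later times in DBTRG-05MG and higher at all 4 in U87. VIM stood at 2072, 2170, 1726, 1235 and 865 FPKM in DBTRG-05MG, lowest at 48 h, and had 5377 to 7246 FPKM in the U87 libraries. NES stood at 45.5, 46.8, 38.2, 31.1 and 33.0 FPKM in DBTRG-05MG and at 9.17, 7.38, 4.94, 7.38 and 6.72 FPKM in U87. In U87 NES was thus lower than at 0 h at all 4 later times, unlike CD44. The part of these markers' course in that of the hypoxia genes was not tested. GFAP did not exceed 0.51 FPKM and OLIG2 did not exceed 2.01 FPKM in any library. SOX2 ranged over 23.0 to 36.6 FPKM in DBTRG-05MG and was listed at 0 in U87. The leukocyte and endothelial markers PTPRC, PECAM1 and CDH5 did not exceed 0.05 FPKM. Of the neuron markers, RBFOX3 did not exceed 0.191 FPKM. SNAP25, however, ranged over 10.1 to 11.8 FPKM in DBTRG-05MG and over 4.00 to 11.1 FPKM in U87. In bulk RNA a lower level can mean fewer expressing cells or less RNA per cell, and these cannot be told apart.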

How the data were processed

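The deposited table gives 1 value per gene and library, read as FPKM; no label names this unit, and it was read from column sums that differ between libraries and from low values that step in whole reads. Per the submitters' processing notes the tools were HISAT, Bowtie2 and RSEM with hg38, versions not given in the sources used here. A deposited FPKM of 0.002 was read as 0. Dose and times follow the labels of the samples, since the series description differs. Read counts were not used, so no counting interval is given.

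Values were analysed as log2(FPKM + 1) in limma 3.58.1 (R 4.3.3), with a mean-variance trend, for the 12352 genes averaging 1 FPKM or more. Times were compared with 0 h with line as a block (4 residual degrees of freedom); the same cell line supplied each course, so line pairs the libraries. The spread behind these p-values is the disagreement of the lines, median SD 0.271. Trends used the rank of time (6 residual degrees of freedom). The spread behind their p-values and SEs is the distance of single libraries from the straight trend of each line. A course that rises and falls back therefore adds to that spread. All p-values were adjusted by Benjamini-Hochberg over the tested genes, threshold 0.05. The 4 comparisons share the 0 h libraries. The fits were tested on simulated data.

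All 10 listed genes are named; from each list, genes that passed or the 4 with the largest common change at 48 h, and the 2 most similar genes per tested gene, which for NDRG1 are not reported here. EGLN1 and CITED2 were added after their values were seen, as were the alternatives for genes named from lists, the counts at 12 and 24 h, the counts of directions and of 12 h levels above or below both ends, and the curved fit. The genes and lists were chosen with earlier results of these data known. Positions are from GENCODE release 29, promoters from RefSeq on GRCh38.p14; protein sequences were not used here. Alternatives were the pseudocount, the filter, median centring, no mean-variance trend, no block for line, other time scales and leaving out each library. Python 3.11.15, pandas 2.3.3, numpy 2.4.6 and matplotlib 3.10.9 served for the rest.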

Additional observations from a re-analysis of the deposited data

Results flagged for a closer look

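ADM and BNIP3 stood out because every later library lay below 0 h in DBTRG-05MG and above 0 h in U87. For ADM the log2 change at 48 h was -1.06 in DBTRG-05MG and 1.46 in U87. For BNIP3 it was -1.41 in DBTRG-05MG and 0.0971 in U87. The opposition itself was not tested by a replicated comparison, since each line and time has 1 library; the trend difference of DBTRG-05MG minus U87 was -0.46 ± 0.25 for ADM (SE, limma adjusted p = 0.432) and -0.47 ± 0.29 for BNIP3 (limma adjusted p = 0.477). All changes of a line rest on its 0 h library. Over 12, 24 and 48 h alone, BNIP3 stood at 55.4, 55.9 and 85.6 FPKM in DBTRG-05MG. In U87 it stood at 212, 219 and 70.6 FPKM at these times. The lower U87 level at 48 h than at 24 h does not involve the 0 h library, but it is not the flagged opposition. That opposition is read against the 0 h library of each line, and whether it would hold with another 0 h library was not tested.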

How the results depend on the processing

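The count of the 9 genes called was 0 in every comparison under every alternative that was run, leave-one-out included, with 1 exception: without the U87 0 h library ANKRD37 was called for a downward trend in U87, at -0.84 per step (limma adjusted p = 0.0264), so that count ranged from 0 to 1. The counts over all genes moved more. At 6, 12 and 24 h they were 1 each, against 3, 3 and 2 with a pseudocount of 0.1, 0 each with median centring and 0 each with no block for line. With no filter on low values they were 0 at 6 h, 3 at 12 h and 5 at 48 h (0 with the filter). Leaving out each library gave 0 to 2 at 6 h, 0 to 3 at 12 h, 0 to 3 at 24 h and 0 to 2 at 48 h. The trend difference called 2 genes, and 1 with a pseudocount of 0.1, 11 with no filter, 1 with a mean of at least 5 FPKM, 7 with median centring, 14 with time as hours, 0 with log2 hours and 7 with the curved course; without single libraries it called 1 to 67, the most without U87 0 h. The DBTRG-05MG trend called 138 genes, and 11, 248 and 49 with the pseudocount of 0.1, no filter and the filter at 5 FPKM, 372 with hours and 8 with log2 hours; without single libraries it called 2 (without DBTRG-05MG 48 h) to 339 (without U87 24 h). The U87 trend called 0, 2 with no filter, 2 with median centring, and 0 to 450 without single libraries, 450 without U87 0 h. DDIT4 lost its call with the pseudocount of 0.1 (limma adjusted p = 0.0705), no filter (0.0534), hours (0.0506) and log2 hours (0.111), and without each of the DBTRG-05MG libraries of 0 h (0.0728), 6 h (0.0700), 24 h (0.0829) and 48 h (0.145). The causes were not tested. Of the sizes, the count of genes at least 2-fold higher in U87 at 48 h was 3 with median centring (1 without) and that of genes at least 2-fold lower 0 (1 without). Depth limits the low genes most, among the 10 EGLN3, ANKRD37 and, in DBTRG-05MG from 6 h on, CA9.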
